A study of Homo sapiens with 60 samples.

Results

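The 42 genes described here encode proteins of blood coagulation, fibrinolysis and the complement system that hepatocytes secrete into plasma, or that control those proteins. They were listed by symbol with earlier results of these data known, and every library is used. All 42 symbols matched a row among the 60675 genes of the deposited table, and 41 of them had at least 10 counts in at least 3 libraries. The exception was C9, the pore-forming last component of complement, which had at most 1 count in any library. The study sequenced RNA of HepG2 cells, an established human hepatocellular carcinoma line used as a model of the liver, in 60 libraries of 20 groups with 3 libraries each. HepG2 is a single tumour line, so its levels are those of that line and not of liver tissue.

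All groups were treated for 24 h. The vehicle group received 0.1% DMSO according to its labels, while the description of the series gives 2% DMSO for the vehicle, and the labels give no DMSO level for the other groups. The wortmannin group received 10 µM of wortmannin, a fungal metabolite that inhibits phosphoinositide 3-kinases. The other 18 groups received hot water extracts, each at 500, 100 and 20 µg/mL, of Poria Cocos (a fungus), Glycyrrhizae Radix (licorice root), Panax Ginseng, Atractylodis Rhizoma, Paeoniae Radix (peony root) and Angelicae Gigantis Radix, named here as Poria, licorice, ginseng, Atractylodes, peony and angelica. The sample codes put these extracts in 3 sets of 2, Poria with Atractylodes, licorice with ginseng and angelica with peony, and the labels do not say what a set is. The wortmannin libraries carry a set number that no extract has, and the vehicle libraries a code of their own, while the titles name a single batch for all 60 libraries. With 1 vehicle group, a difference of wortmannin or of an extract from vehicle cannot be told apart from a difference between sets or in DMSO. The dose trend of an extract, its log2 level at 500 µg/mL minus that at 20 µg/mL, uses libraries of 1 set and no vehicle. Whether the 3 libraries per group stem from separate cultures is not given in the labels, so p-values measure only the spread between libraries, which may be technical.

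Coagulation is a cascade of plasma proteases in which thrombin, cut from prothrombin, turns soluble fibrinogen into fibrin, while plasmin dissolves the clot and serpins such as antithrombin block the proteases. Complement is another cascade, started by antibodies, by lectins that bind microbial sugars or by spontaneous activation of C3, and it ends in a membrane pore built from C5b to C9. Hepatocytes make most of these proteins, and fibrinogen and C3 are acute phase proteins, whose synthesis in the liver is raised by interleukin 6.

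Fibrinogen is built of 3 chains, and their genes lie beside each other on chromosome 4 of GRCh38: FGB at chr4:154562956-154571086 on the forward strand, FGA at chr4:154583126-154590766 and FGG at chr4:154604134-154612967, both on the reverse strand. Their upstream sequences are printed because these were the most abundant coagulation genes among the members per length and all 3 fell in 2 dose trends. The FGA stretch is chr4:154590767-154590992, the FGB stretch chr4:154562730-154562955 and the FGG stretch chr4:154612799-154612828. Each is on its gene's strand, upstream of the RefSeq start (GRCh38.p14). For FGA and FGB bases inside GENCODE exons were left out. The FGG window falls in an annotated exon, so only the 30 bases around the match are printed, and exon bases were not left out. This FGG stretch lies inside the GENCODE span of the gene given above. Capitals mark the 7 letters CTGGGAA, the core of the interleukin 6 response element of acute phase genes, and GTTAATN, a half-site of hepatocyte nuclear factor 1, here read on the opposite strand.
FGA: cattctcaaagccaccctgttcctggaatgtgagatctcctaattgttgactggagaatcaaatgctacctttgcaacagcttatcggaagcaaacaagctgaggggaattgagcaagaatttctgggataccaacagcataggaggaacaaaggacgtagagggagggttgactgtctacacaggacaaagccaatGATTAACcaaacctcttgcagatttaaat
FGB: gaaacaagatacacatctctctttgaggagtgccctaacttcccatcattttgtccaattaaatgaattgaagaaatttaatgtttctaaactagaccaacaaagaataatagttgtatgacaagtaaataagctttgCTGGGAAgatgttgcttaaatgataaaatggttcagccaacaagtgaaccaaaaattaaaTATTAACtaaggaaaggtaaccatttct
FGG: gtgtgcaaaatCTGGGAAcctgacagtata

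Among 33 members with a RefSeq promoter, 7 (21.2%) held GTTAATN on either strand of the 250 bases before the start, against 6.21% of 27305 promoters of the same length. They were FGA, FGB, F2, F13B, KLKB1, CFI and C4BPA. CTGGGAA was found in 5 members (15.2%), FGB, FGG, F10, PLG and MASP2, against 9.3% of all promoters. In FGB, which holds both motifs, the matches did not overlap. The CCAAT box was found in 13 members (39.4%) against 33% of all promoters, and TTGCGNAA, a site of C/EBP factors, in 0 members against 0.74%. CACGTG was found in KNG1 and C2 (6.1% against 6.49%), and TGACNNNGC, the core of the antioxidant response element, in F10 and SERPIND1 (6.1% against 11%). In F10 the CTGGGAA and TGACNNNGC matches share 1 base, and both strands were searched for every motif. A match describes these letters in these windows and is not evidence of binding.

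Libraries held 20852929 to 33353686 counts, so 3 counts corresponded to 0.0899 to 0.1439 CPM, which are counts scaled to the same total in every library. Mitochondrial genes took 8.1 to 15.2% of counts, and the highest share was in replicate 1 of Poria at 100 µg/mL, also the library with the lowest total. All 9 hepatocyte markers were detected. PTPRC, the pan-leukocyte marker, was at 0 in every library, HBB and CD3E had under 10 counts in every library, and so did 5 of 7 fibroblast and stellate cell markers (COL1A2, COL3A1, DCN, LUM and PDGFRA) and 4 of 7 endothelial and platelet markers (CDH5, KDR, TEK and PF4, with KDR and PF4 at 0).

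In vehicle libraries the members spanned a wide range of abundance. Per length, as TPM computed from gene counts and merged exon lengths (counts per base, scaled to the same total in each library), the fibrinogen genes FGA (2171) and FGG (1769) were highest, followed by C3 (952), the hub of complement, FGB (792), SERPINF2 (664), which encodes the plasmin inhibitor, and SERPIND1 (410), which encodes heparin cofactor II. Prothrombin (F2) stood at 319 and vitronectin (VTN) at 297, whereas the contact-system gene KLKB1, encoding plasma prekallikrein, stood at 0.894 and C6 at 0.211. FGA, FGB, FGG and C3 together held 64.5% ± 0.75 (SD, n = 3) of the counts of the 42 genes in vehicle.

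The members' summed share of all counts differed between treatments. It was 1.305% ± 0.031 (SD, n = 3) in vehicle and 1.56% ± 0.041 with wortmannin. With Poria it was 1.24% ± 0.023 at 20 µg/mL, 0.999% ± 0.055 at 100 µg/mL and 0.911% ± 0.014 at 500 µg/mL, and with licorice 1.35% ± 0.055, 1.24% ± 0.044 and 1.11% ± 0.027. With the other 4 extracts, group means lay between 1.29% and 1.44%. With mitochondrial counts left out, the shares were 1.47% in vehicle, 1.78% with wortmannin, 1.04% with Poria at 500 µg/mL and 1.24% with licorice at 500 µg/mL. These are shares of unscaled counts, so they also move when other genes change. In bulk RNA of this 1 line, fewer cells that express these genes and less of their RNA per cell cannot be told apart.

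Most members were called in 5 of the 19 comparisons of 2 groups: wortmannin against vehicle, the dose trends of Poria and licorice, and these extracts at 500 µg/mL against vehicle. The first 3 are described here and the other 2 further on. With wortmannin, 26 of 41 members rose and 6 fell, where 46.3% of the 16093 genes tested were called, 22.4% upward and 24% downward. The members' median log2 change was 0.28, beside 0.01 over all genes tested. In the Poria dose trend 2 members rose and 33 fell, where 43.5% of all genes were called, 22.3% upward and 21.2% downward. Their median was -0.27, beside -0.01 over all genes. In the licorice dose trend 3 members rose and 26 fell, where 21.3% of all genes were called, 11% upward and 10.3% downward, and the median was -0.25, beside 0.00 over all genes. A gene was called at an adjusted p (edgeR, Benjamini-Hochberg over all genes tested) under 0.05, and C9 was not tested. Fold changes come from the fit, which scales libraries by TMM factors of 0.926 to 1.03, so they differ from the ratios of the unscaled CPM printed beside them.

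**Figure D1:**
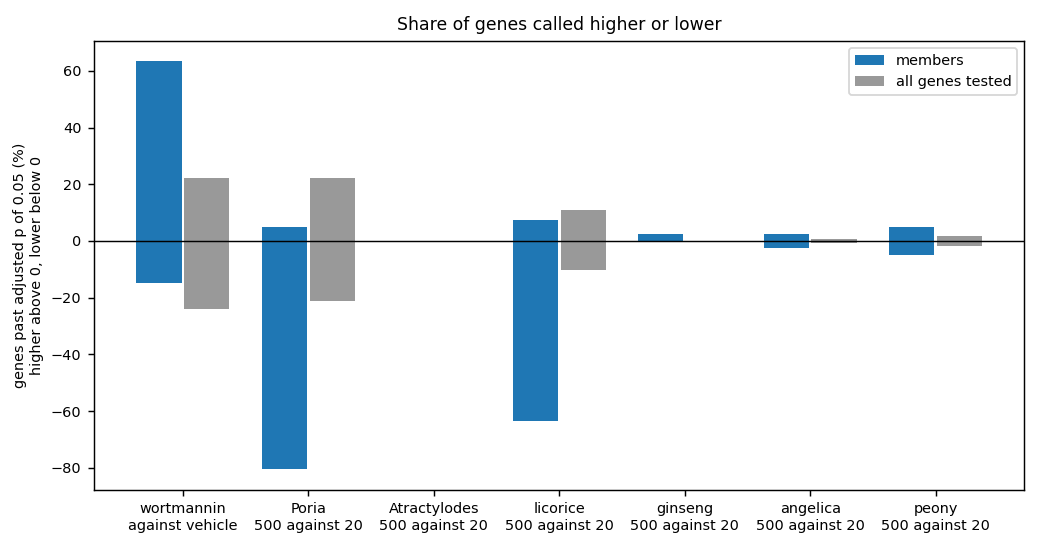
Share of genes called at an adjusted p under 0.05, for wortmannin against vehicle and the 6 dose trends (500 against 20 µg/mL), with genes higher in the first-named group above 0 and lower ones below 0. Blue bars are the 41 members and grey bars all 16093 genes tested. The members' bars lie mainly above 0 with wortmannin (26 up, 6 down) and mainly below 0 with Poria (33 down) and licorice (26 down).

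Among members that fell with Poria or licorice, the mean at 100 µg/mL mostly lay between those at 20 and 500 µg/mL. Of the 33 members that fell with Poria, 31 had group means ordered 20, 100, 500 µg/mL from high to low. Their median log2 ratio of mean CPM was -0.23 from 20 to 100 µg/mL and -0.18 from 100 to 500 µg/mL. Of the 26 that fell with licorice, 25 had that order, with medians of -0.15 and -0.19. These members were called from their 20 and 500 µg/mL libraries, so only the place of 100 µg/mL in the order was open. Over all 41 members, called or not, 33 had that order with Poria and 30 with licorice. The share over all genes was not computed. The Poria and licorice trends share no library. In both, 23 genes fell, 69.7% of the Poria list and 88.5% of the licorice list, where 63.4% of all 41 members fell with licorice and 80.5% with Poria. Of the 26 genes that rose with wortmannin, 80.8% (21) fell with Poria and 57.7% (15) with licorice, which is close to those shares of all members. These overlaps were not tested, and no link between the comparisons is read from them.

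**Figure D2:**
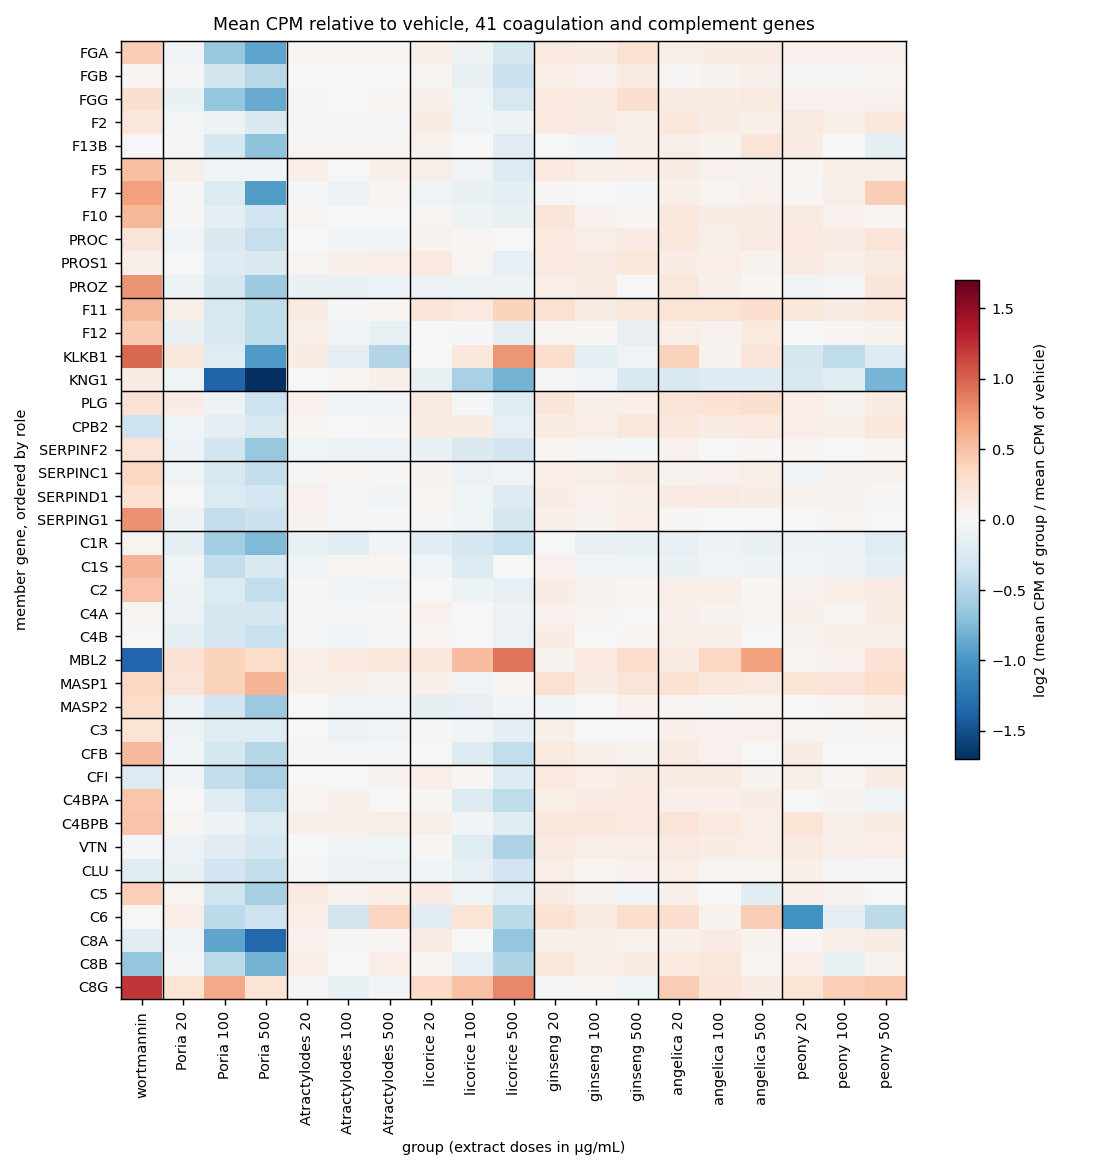
Mean CPM of each of the 41 members in 19 groups relative to vehicle, as a log2 ratio (red higher, blue lower), with members ordered by role and lines between roles. Doses are in µg/mL. The darkest blue is KNG1 with Poria, and MBL2 is red with licorice and blue with wortmannin.

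FGA, FGB and FGG encode the alpha, beta and gamma chains of fibrinogen, and all fell with Poria. FGA stood at 2686, 2716 and 2897 CPM in the 3 libraries with Poria at 20 µg/mL, at 1687, 1920 and 1952 at 100 µg/mL and at 1555, 1561 and 1553 at 500 µg/mL. No library of 1 dose overlapped with those of another, and replicate 1 at 100 µg/mL, the library with the highest mitochondrial share, was the lowest of its group. The FGA trend was -0.75 (log2, SE 0.036, adjusted p 2.06e-23). FGG fell by 0.66 on the log2 scale (SE 0.051, adjusted p 1.82e-15), from 1860, 1999 and 2057 CPM to 1173, 1158 and 1215. FGB fell by 0.36 (SE 0.035, adjusted p 2.59e-12), from 695, 690 and 732 CPM to 526, 511 and 524. In none of the 3 genes did the libraries of 20 and 500 µg/mL overlap.

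With licorice, FGA stood at 2953, 3088 and 3125 CPM at 20 µg/mL and at 2262, 2355 and 2412 CPM at 500 µg/mL, a fall by 0.39 on the log2 scale (adjusted p 1.61e-12). FGB fell by 0.42 (adjusted p 1.15e-13), from 703, 785 and 753 CPM to 532, 581 and 573. FGG fell by 0.36 (adjusted p 2.24e-07), from 2112, 2388 and 2327 CPM to 1749, 1778 and 1811. The 3 licorice falls lay between 0.36 and 0.42, and the 3 Poria falls between 0.36 for FGB and 0.75 for FGA. With wortmannin FGA rose, from 3029, 2838 and 2792 CPM to 3915, 3768 and 3892 (log2 change 0.44, adjusted p 6.67e-15), and FGG rose by 0.30 (adjusted p 3.13e-06). FGB, at 730, 719 and 714 CPM in vehicle and 747, 727 and 744 with wortmannin, had a log2 change of 0.05 (SE 0.035, adjusted p 0.220) and did not pass the test.

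**Figure D3:**
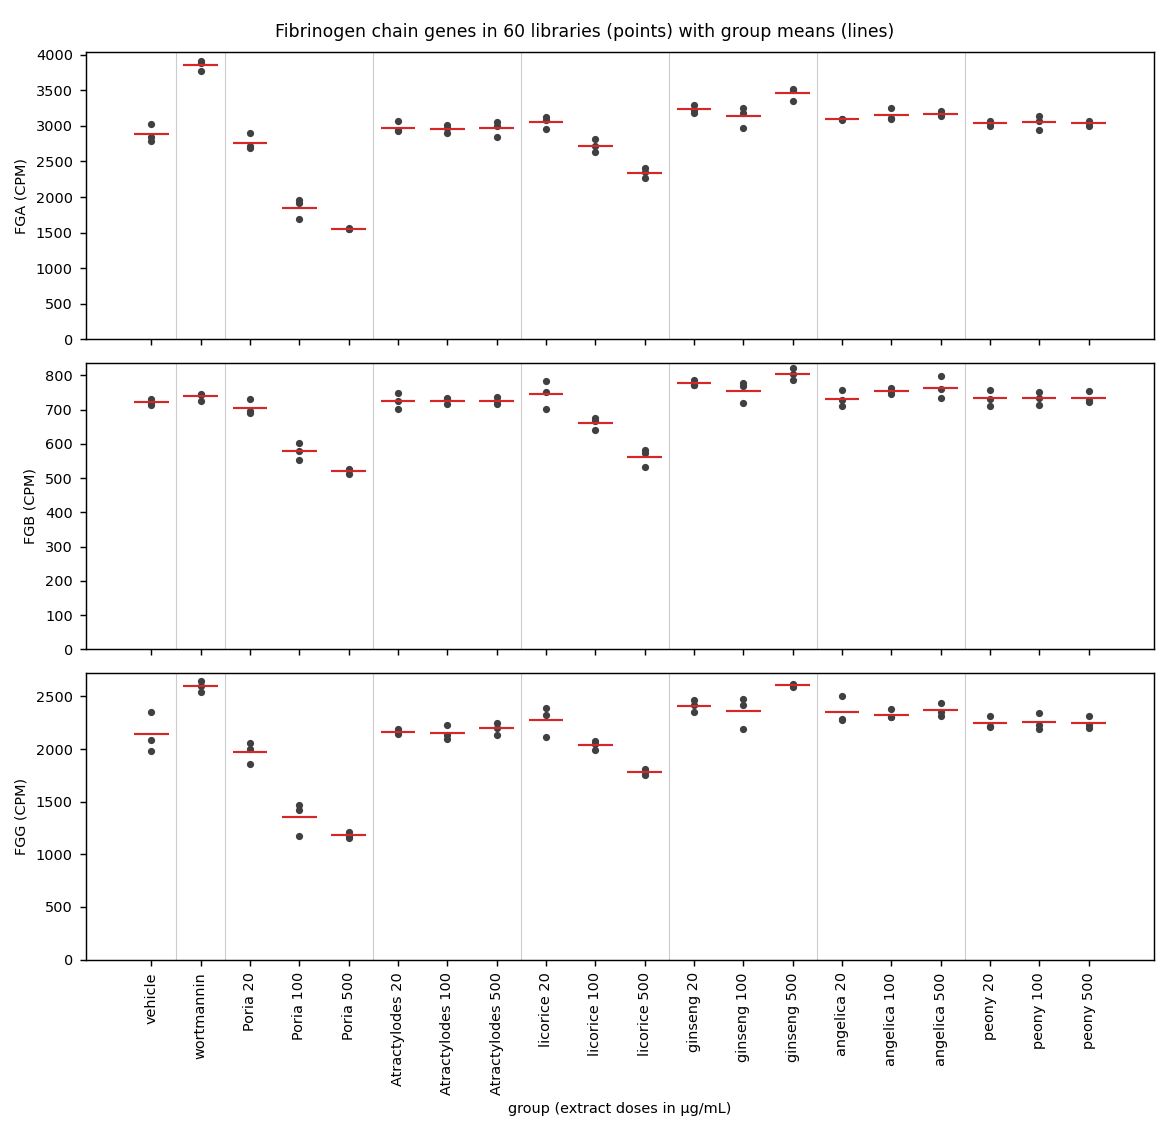
CPM of FGA, FGB and FGG in each of the 60 libraries (points) with group means (red lines), on linear axes from 0. All 3 genes step down with Poria and licorice dose. The 9 Poria libraries of FGA span 1553 to 2897 CPM, and the wortmannin libraries (3768 to 3915 CPM) are above all others.

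Prothrombin (F2), the zymogen of thrombin, moved less. It fell with Poria by 0.13 (adjusted p 0.0262), from 266, 265 and 268 CPM to 223, 238 and 231, and with licorice by 0.22 (adjusted p 0.000499), and rose by 0.21 with wortmannin (adjusted p 0.00026). Its Poria call was lost without replicate 1 at 500 µg/mL (adjusted p 0.102) or without any 1 library at 20 µg/mL (adjusted p 0.0514 to 0.0555). F13B, the carrier subunit of the fibrin-crosslinking factor XIII, was at 3.21 to 6.01 CPM on average over the groups. It fell with Poria by 0.59 (adjusted p 2.09e-05), from 5.39, 4.83 and 5.16 CPM to 3.07, 3.51 and 3.06, without overlap. Its changes with licorice (-0.27, adjusted p 0.0656) and wortmannin (0.01, adjusted p 0.96) did not pass the test.

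Among the vitamin K-dependent factors and their cofactors, F7 varied most. F7 encodes factor VII, which starts the extrinsic pathway with tissue factor. It stood at 22.0, 21.2 and 22.3 CPM with Poria at 20 µg/mL and at 11.2, 12.4 and 9.89 CPM at 500 µg/mL, a fall by 0.89 on the log2 scale (SE 0.081, adjusted p 4.16e-13). At 100 µg/mL it stood at 20.0, 16.6 and 18.5 CPM, so most of the fall lay between 100 and 500 µg/mL. With wortmannin F7 rose by 0.71 (SE 0.071, adjusted p 3.81e-12), from 21.7, 23.2 and 19.7 CPM to 33.2, 35.5 and 35.8, and with licorice its change was -0.09 (adjusted p 0.428). In the Poria, licorice and wortmannin groups these libraries overlapped only in the licorice comparison.

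F5 encodes factor V, the cofactor of factor Xa. It fell by 0.35 with licorice (adjusted p 6.64e-06), from 190, 183 and 190 CPM to 150, 142 and 152, and had a change of -0.06 with Poria (adjusted p 0.453). It rose by 0.53 with wortmannin (adjusted p 4.42e-11), from 180, 166 and 177 CPM to 264, 236 and 249. F10, encoding factor X, and the anticoagulant genes PROC (protein C) and PROS1 (protein S) fell with Poria by 0.27, 0.23 and 0.18. With licorice F10 fell by 0.18 and PROS1 by 0.31, while PROC (-0.06, adjusted p 0.492) did not pass the test. With wortmannin F10 rose by 0.58, PROC by 0.23 and PROZ, encoding protein Z, by 0.77, whereas PROS1 (0.10, adjusted p 0.0645) did not pass. PROZ fell with Poria by 0.43. The licorice call of F10 was lost without replicate 2 or 3 at either dose (adjusted p 0.0654 to 0.126).

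In the contact system, which starts the intrinsic pathway and releases bradykinin, KNG1 fell furthest of all members. KNG1 encodes kininogen, the substrate from which bradykinin is cut. It stood at 9.17, 9.70 and 10.49 CPM with Poria at 20 µg/mL, at 3.98, 4.22 and 3.82 at 100 µg/mL and at 2.85, 2.91 and 3.24 at 500 µg/mL. The libraries of the 3 doses did not overlap, and the trend was -1.63 (log2, SE 0.101, adjusted p 5e-19). With licorice KNG1 fell by 0.68 (SE 0.089, adjusted p 4.21e-08), from 8.78, 9.30 and 10.2 CPM to 6.09, 6.29 and 5.30. With wortmannin its change was 0.14 (adjusted p 0.150).

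F11, encoding factor XI, moved in opposite directions with the 2 extracts. It fell by 0.45 with Poria (adjusted p 4.02e-11) and rose by 0.17 with licorice (adjusted p 0.00351), from 50.7, 52.5 and 52.0 CPM to 58.6, 59.0 and 58.0. With wortmannin it rose by 0.58. KLKB1 fell by 1.07 with Poria (adjusted p 0.000537) and rose by 0.72 with licorice (adjusted p 0.00848) and by 0.99 with wortmannin (adjusted p 5.2e-05). It was near the detection limit, with 9 to 59 counts per library, so these sizes are imprecise (SE 0.20 to 0.25), and its licorice call was lost without replicate 3 at 500 µg/mL (adjusted p 0.0543) or at 20 µg/mL (adjusted p 0.055). F12, encoding factor XII, rose by 0.46 with wortmannin (adjusted p 0.000242) and did not pass the test in the Poria or licorice trend.

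The 3 fibrinolysis genes fell with both extracts. PLG encodes plasminogen, the zymogen of plasmin. It fell by 0.41 with Poria (adjusted p 5.13e-12), from 84.2, 80.9 and 89.4 CPM to 60.8, 60.01 and 60.9, and by 0.36 with licorice (adjusted p 5.65e-10), from 81.5, 89.4 and 87.1 CPM to 66.0, 66.3 and 69.5. The libraries of 20 and 500 µg/mL did not overlap with either extract. SERPINF2, whose product alpha 2-antiplasmin inhibits plasmin, fell by 0.46 with Poria and 0.22 with licorice. CPB2, whose product TAFI protects fibrin from plasmin, fell by 0.13 and 0.27. With wortmannin PLG rose by 0.26 (adjusted p 2.43e-07) and SERPINF2 by 0.24, whereas CPB2 fell by 0.33 (adjusted p 6.15e-09), from 150, 142 and 141 CPM to 113, 106 and 121. The Poria call of CPB2 was lost without replicate 2 at 500 µg/mL or replicate 2 or 3 at 20 µg/mL (adjusted p 0.0543 to 0.0773).

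Among the serpin inhibitors, SERPINC1 encodes antithrombin, the main inhibitor of thrombin and factor Xa. It fell by 0.27 with Poria (adjusted p 1.31e-05), from 129, 141 and 132 CPM to 108, 99.5 and 108, and rose by 0.37 with wortmannin (adjusted p 1.12e-08). With licorice it stood at 139, 149 and 148 CPM at 20 µg/mL and 129, 134 and 137 CPM at 500 µg/mL, a change of -0.13 (adjusted p 0.0523 in edgeR and 0.0342 in DESeq2). SERPIND1 fell by 0.21 with Poria and 0.27 with licorice, and rose by 0.28 with wortmannin. SERPING1, whose product C1 inhibitor blocks C1r, C1s and kallikrein, rose by 0.79 with wortmannin (adjusted p 1.45e-12), from 25.7, 23.8 and 24.2 CPM to 45.5, 40.7 and 40.0. It fell by 0.20 with Poria (adjusted p 0.0443) and 0.27 with licorice (adjusted p 0.0131). The SERPING1 call with Poria was lost without replicate 1 or 2 at 500 µg/mL or replicate 2 or 3 at 20 µg/mL (adjusted p 0.0526 to 0.368), and that with licorice without replicate 2 or 3 at 500 µg/mL (adjusted p 0.0581 and 0.0855).

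MBL2, in the lectin pathway, moved against most other members. It encodes mannose-binding lectin, which recognises microbial sugars and activates the MASP proteases. MBL2 fell by 1.33 with wortmannin (SE 0.059, adjusted p 5.72e-25), from 29.2, 28.6 and 25.9 CPM to 10.95, 10.8 and 11.3. With licorice it stood at 31.8, 30.6 and 33.3 CPM at 20 µg/mL, 39.7, 41.4 and 39.5 at 100 µg/mL and 52.9, 51.4 and 52.7 at 500 µg/mL, a rise by 0.71 (SE 0.050, adjusted p 2.5e-16). The 3 doses did not overlap, while 26 other members fell with licorice. With Poria MBL2 rose by 0.15 (adjusted p 0.0161), from 31.0, 34.1 and 33.9 CPM to 33.3, 35.5 and 35.0, and the libraries of those doses overlapped. That call was lost without replicate 1 at 20 µg/mL or replicate 2 or 3 at 500 µg/mL (adjusted p 0.0652 to 0.145).

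MASP1 and MASP2 encode the proteases bound to MBL2. With Poria MASP1 rose by 0.44 (adjusted p 4.81e-08), from 22.5, 22.9 and 22.6 CPM to 27.3, 31.1 and 29.01, and MASP2 fell by 0.45 (adjusted p 1.96e-07), from 23.2, 24.8 and 24.6 CPM to 17.6, 16.1 and 16.45. Neither passed the test in the licorice trend (-0.04 and 0.10), and both rose with wortmannin, by 0.36 and 0.33. In the classical pathway C1R, encoding a protease of the C1 complex, fell by 0.49 with Poria (adjusted p 4.2e-06). C1S, encoding its partner, fell by 0.13 with Poria and rose by 0.60 with wortmannin (adjusted p 5.95e-16), from 49.1, 49.4 and 48.2 CPM to 72.4, 75.1 and 72.4. C2, whose protease carries the classical C3 convertase, fell by 0.25 with Poria and 0.16 with licorice and rose by 0.51 with wortmannin. C4A and C4B, near-identical genes of the other convertase subunit, had changes between -0.18 and 0.06, and the division of reads between them is uncertain. With their counts added, the change was -0.13 with Poria (adjusted p 0.0086), -0.16 with licorice (adjusted p 0.0038) and 0.04 with wortmannin (adjusted p 0.512). The Poria call of C1S was lost without replicate 1 or 3 of either dose (adjusted p 0.0647 to 0.133).

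C3 is the protein on which all pathways converge, and CFB carries the protease of the alternative pathway. C3 moved little with Poria, from 2489, 2605 and 2477 CPM at 20 µg/mL to 2436, 2251 and 2246 CPM at 500 µg/mL (log2 change -0.05, SE 0.041, adjusted p 0.368). With licorice it fell by 0.20 (adjusted p 0.000228), from 2589, 2722 and 2804 CPM to 2316, 2394 and 2396, and with wortmannin it rose by 0.25 (adjusted p 1.52e-06). CFB fell by 0.36 with Poria (adjusted p 1.75e-09), from 183, 172 and 186 CPM to 130, 135 and 132, and by 0.44 with licorice (adjusted p 5.07e-11), from 173, 190 and 196 CPM to 129, 141 and 145. With wortmannin CFB rose by 0.56 (adjusted p 1.38e-15), from 187, 187 and 181 CPM to 272, 262 and 278. No CFB libraries overlapped in these 3 comparisons.

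The 5 plasma regulators fell with both extracts. VTN encodes vitronectin, which blocks pore assembly. It fell by 0.56 with licorice (SE 0.054, adjusted p 8.51e-12), from 229, 262 and 250 CPM to 164, 173 and 169, but by 0.13 with Poria (adjusted p 0.0468), from 223, 228 and 231 CPM to 195, 204 and 192. With wortmannin VTN had a change of -0.01 (adjusted p 0.874). CFI, encoding the protease that cuts C3b and C4b, fell by 0.43 with Poria and 0.33 with licorice, and fell by 0.21 with wortmannin. C4BPA, encoding the alpha chain of the C4b-binding protein, fell by 0.35 with Poria and 0.47 with licorice and rose by 0.48 with wortmannin. C4BPB, encoding its beta chain, did the same, with falls by 0.21 and 0.30 and a rise by 0.50. CLU, encoding clusterin, a chaperone that also blocks pore assembly, fell by 0.22 with Poria (adjusted p 5.09e-05), by 0.29 with licorice (adjusted p 1.01e-06) and by 0.16 with wortmannin (adjusted p 0.00196). The Poria call of VTN was lost without any 1 of 5 libraries, replicate 2 at 500 µg/mL being the exception (adjusted p 0.0522 to 0.113), and that of C4BPB without replicate 1 at 500 µg/mL (adjusted p 0.145).

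In the terminal pathway C8A and C8B, which encode chains of the pore component C8, fell in all 3 comparisons. C8A stood at 25.8, 26.8 and 25.0 CPM with Poria at 20 µg/mL, 14.6, 13.8 and 14.9 at 100 µg/mL and 10.2, 10.6 and 10.98 at 500 µg/mL, a fall by 1.21 (SE 0.059, adjusted p 6.3e-23). With licorice it stood at 27.6, 31.4 and 30.2 CPM, then 26.8, 26.8 and 26.7, then 16.4, 17.3 and 17.2, a fall by 0.81 (SE 0.055, adjusted p 6.26e-17). With Poria most of the fall lay between 20 and 100 µg/mL, with licorice between 100 and 500 µg/mL. With wortmannin C8A fell by 0.17 (adjusted p 0.00583). C8B fell by 0.69 with Poria (adjusted p 4e-07), 0.56 with licorice (adjusted p 2.39e-05) and 0.65 with wortmannin (adjusted p 4.95e-07).

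C8G, which encodes the third chain of C8 and lies on another chromosome, rose by 1.24 with wortmannin (SE 0.22, adjusted p 4.74e-06), from 0.962, 2.08 and 1.36 CPM to 3.06, 4.25 and 2.89. It had 27 to 124 counts per library, and its changes in the Poria (0.06) and licorice (0.47) trends did not pass the test. C5, the precursor of C5a and of the pore's first protein, fell by 0.54 with Poria (adjusted p 1.29e-13), from 221, 230 and 228 CPM to 146, 148 and 149, and by 0.35 with licorice (adjusted p 8.84e-08). It rose by 0.42 with wortmannin (adjusted p 1.15e-10). C6 had 2 to 16 counts per library, and none of its changes passed the test in these 3 comparisons.

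**Figure D4:**
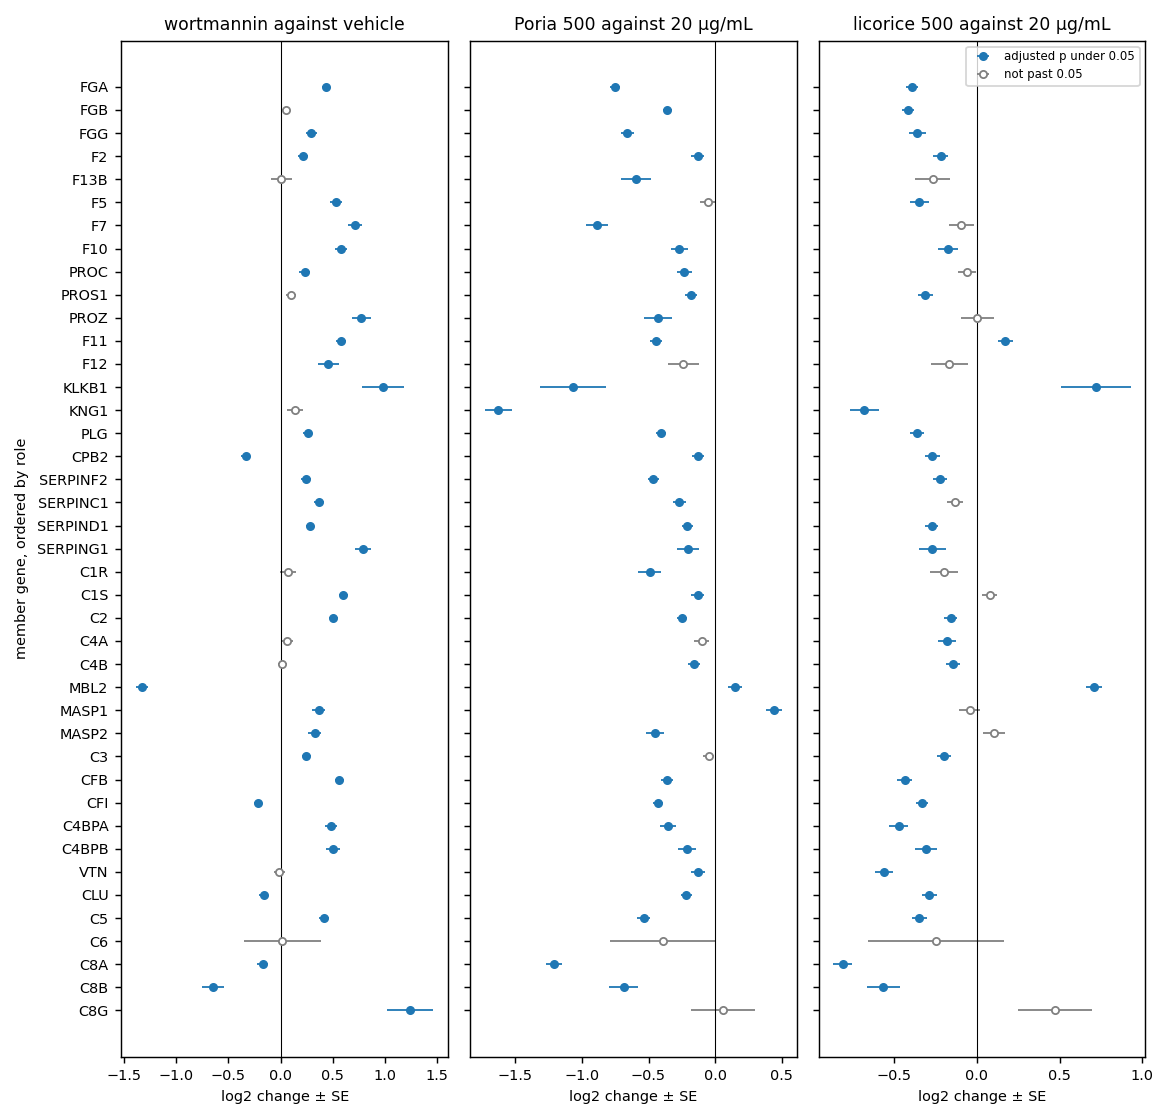
Log2 change with its SE of each of the 41 members with wortmannin against vehicle and at 500 against 20 µg/mL of Poria and licorice, ordered by role. Filled points passed an adjusted p of 0.05 and open points did not. The panels have different horizontal scales. Most points lie right of 0 with wortmannin and left of 0 with Poria and licorice.

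The other 4 extracts changed few members between 20 and 500 µg/mL. In the Atractylodes trend 0 members were called by edgeR, where 0.0497% of all genes were. DESeq2 called 0 members, and 8 had an unadjusted p under 0.05 in edgeR. In the ginseng trend 1 member rose (0.149% of all genes called), in the angelica trend 1 rose and 1 fell (1.22%), and in the peony trend 2 rose and 2 fell (3.49%). MBL2 rose in each of these 3 trends, alone with ginseng and angelica and beside F7 with peony. With angelica it rose by 0.54 (SE 0.050, adjusted p 6.13e-11), from 32.7, 30.5 and 29.7 CPM to 46.1, 44.5 and 43.7, without overlap. With ginseng it rose by 0.25 (adjusted p 0.0176), from 29.7, 28.5 and 28.99 CPM to 36.3, 33.3 and 33.3, and with peony by 0.19 (adjusted p 0.0294), from 29.7, 27.9 and 29.1 CPM to 35.5, 33.5 and 30.5. The ginseng call was lost without replicate 1 at 500 µg/mL (adjusted p 0.524) or any 1 library at 20 µg/mL (0.0503 to 0.201), and the peony call without replicate 1 or 2 at 500 µg/mL or any 1 library at 20 µg/mL (0.0511 to 0.309).

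With peony F7 rose by 0.38 (adjusted p 0.00053), from 22.0, 21.3 and 22.3 CPM to 27.5, 30.7 and 28.1, whereas it fell with Poria. KNG1 fell with peony by 0.53 (adjusted p 8.51e-05), from 8.80, 8.86 and 7.77 CPM to 6.57, 5.29 and 5.93, and its libraries at 100 µg/mL stood at 7.72, 9.32 and 9.66. In a regression on log dose over all 9 peony libraries the KNG1 call was lost (-0.51, adjusted p 0.0764). CFB fell with peony by 0.15 (adjusted p 0.0364), from 197, 216 and 196 CPM to 189, 180 and 184. With angelica C5 fell by 0.25 (adjusted p 0.000841), from 241, 233 and 223 CPM to 202, 188 and 192. The libraries of 20 and 500 µg/mL did not overlap in any of these 4 results. The CFB call was lost without replicate 2 or 3 at 500 µg/mL or replicate 2 at 20 µg/mL (adjusted p 0.0956 to 0.352), and the number of members called with peony was 2 without replicate 2 at 500 µg/mL.

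**Figure D5:**
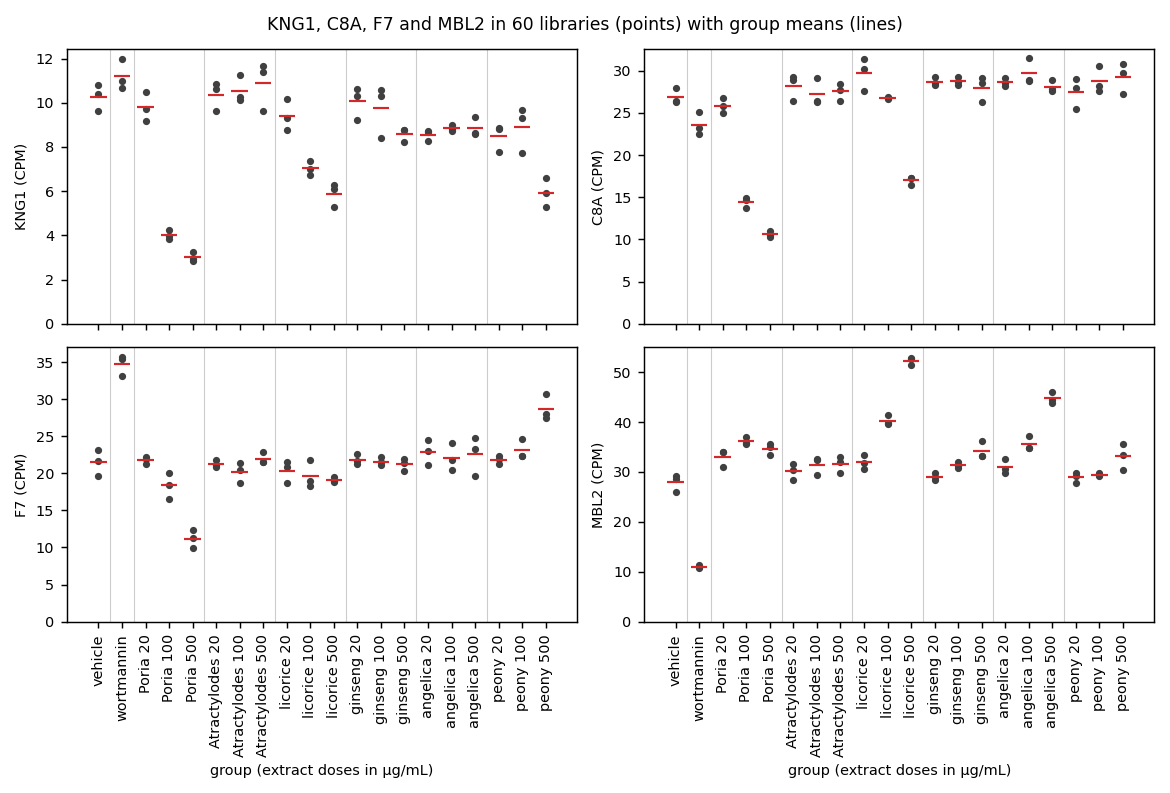
CPM of KNG1, C8A, F7 and MBL2 in each of the 60 libraries (points) with group means (red lines), on linear axes from 0. KNG1 steps down with Poria and licorice dose and is low at the highest peony dose. C8A falls with Poria and licorice, F7 is highest with wortmannin and lowest with Poria at 500 µg/mL, and MBL2 is lowest with wortmannin (10.8 to 11.3 CPM) and highest with licorice at 500 µg/mL (51.4 to 52.9 CPM).

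A joint test that the 6 dose trends are equal passed for 30 of the 41 members, where 35.1% of all genes passed. The smallest adjusted p-values were 8.85e-21 for C8A, 1.8e-20 for FGA and 6.93e-15 for KNG1. F2, F10, PROC, F12, SERPING1, C4A, C4B, C3, C4BPB, C6 and C8G did not pass.

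At 500 µg/mL of Poria 2 members were above vehicle and 35 below (47.6% of all genes called), and of licorice 4 were above and 24 below (32.4%). KNG1 with Poria (-1.67), C8A with Poria (-1.23) and MBL2 with licorice (0.90) were the widest differences. With Atractylodes 0 members were called by edgeR (0.889%; 0 by DESeq2, 5 at an unadjusted p under 0.05 in edgeR), with ginseng 13 were above and 1 below (10.2%), with angelica 10 above and 1 below (18.9%) and with peony 11 above and 2 below (19.7%). Among these, MBL2 was 0.69 above vehicle with angelica, and KNG1 was 0.80 below vehicle with peony (log2 difference -0.80, adjusted p 9.53e-10). Leaving out 1 library moved the ginseng count of 14 to 6 (vehicle replicate 2), 8 (ginseng replicate 2) or 7 (ginseng replicate 3). It moved the angelica count of 11 to 7 (vehicle replicate 2 or 3), the peony count of 13 to 8 (peony replicate 2) and the Atractylodes count of 0 to 1 (Atractylodes replicate 1).

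At 20 µg/mL 3 members were above vehicle with Poria (3.8% of all genes called), 0 with Atractylodes (1.08%; 1 by DESeq2, C5, and 6 at an unadjusted p under 0.05 in edgeR), 4 with licorice (11.2%), 19 with ginseng (13.9%), 18 with angelica (24.3%) and 10 with peony (15.8%). Below vehicle were 1 with angelica and 1 with peony, KNG1 in both. FGA was 0.16 above vehicle with ginseng and 0.10 with angelica, and PLG was above vehicle with all of Poria, licorice, ginseng, angelica and peony, by 0.11 to 0.22. The FGA call with ginseng and the PLG calls with ginseng and angelica held in every alternative run. The FGA call with angelica was lost in 8 alternatives (adjusted p up to 0.204), and the PLG calls were lost in 5 with Poria (up to 0.164), 4 with licorice (up to 0.0855) and 8 with peony (up to 0.26), each time including the fit of the compared libraries alone. These differences cannot be told apart from a difference between sets or in DMSO. The counts also rested on single libraries. Without 1 library the Poria count of 3 was 1 (vehicle replicate 1 or 2, Poria replicate 3), the Atractylodes count of 0 was 2 (vehicle replicate 3) or 1 (Atractylodes replicate 1), and the licorice count of 4 was 2 (vehicle replicate 2, licorice replicate 2) or 7 (licorice replicate 1). The ginseng count of 19 was 11 or 9 (vehicle replicate 2 or 3) and 10, 6 or 12 (ginseng replicate 1, 2 or 3). The angelica count of 19 was 10 (vehicle replicate 3, angelica replicate 3), and the peony count of 11 was 7, 4 or 6 (vehicle replicate 1, 2 or 3) and 5 or 7 (peony replicate 2 or 3).

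Genes of the same systems outside the list were counted in the same way. Over all genes tested 43.5% were called in the Poria trend (22.3% upward), 21.3% in the licorice trend and 46.3% with wortmannin. Of 25 further coagulation and fibrinolysis genes 22 were tested, and in the Poria trend 12 of them rose and 2 fell, with a median of 0.41. Among them TFPI2 rose by 1.71, SERPINE2 by 1.09 and HABP2 by 1.06. TFPI2 (6 to 47 counts per library) and HABP2 (9 to 52) were near the detection limit, so their sizes are imprecise. In the licorice trend 2 of the 22 rose and 7 fell, with a median of -0.16, among them A2M (-0.41), a broad protease inhibitor, and SERPINA5 (-0.40), the protein C inhibitor. With wortmannin 11 rose and 3 fell. Of 7 genes of the vitamin K cycle and factor secretion, 5 rose and 1 fell with Poria (median 0.14). With licorice 3 rose and 2 fell, and with wortmannin 2 rose and 2 fell. Among them NQO1 rose by 1.10 with Poria and by 1.29 with licorice and fell by 0.37 with wortmannin. GGCX, the carboxylase that modifies vitamin K-dependent factors, fell by 0.37 with Poria.

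Of 24 other complement genes 17 had under 10 counts in every library, including C1QA, C1QB, C1QC and FCN1, and 7 were tested. In the Poria trend 1 of the 7 fell, C1RL by 0.32, and in the licorice trend 3 rose, of which C5AR1 and C5AR2 were below 1 CPM on average. With wortmannin 4 of the 7 rose and 1 fell. The shares of all genes called were 43.5% with Poria, 21.3% with licorice and 46.3% with wortmannin. Of the 3 membrane regulators, 1 rose with Poria, 1 rose and 1 fell with licorice, and 2 rose with wortmannin. CD55 rose in all 3 comparisons, by 0.51 with Poria, 0.31 with licorice and 0.60 with wortmannin.

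Of 13 liver transcription factors, 2 rose and 5 fell with Poria (median -0.10), 1 rose and 6 fell with licorice (median -0.16), and 3 rose and 6 fell with wortmannin (median -0.01). Over all genes tested 43.5%, 21.3% and 46.3% were called, so the 7 of 13 with Poria lie near the background. NR1H4, encoding the bile acid receptor FXR, fell by 1.45 with Poria, from a mean of 62.5 to 21.6 CPM, by 0.46 with licorice and by 0.76 with wortmannin. CEBPA fell by 1.11 with Poria, by 0.21 with licorice and by 0.33 with wortmannin, and ONECUT1 and FOXA1 fell with Poria by 0.89 and 0.63. Of 6 genes of interleukin 6 signalling, 3 rose and 0 fell with Poria, and 4 rose and 0 fell with wortmannin. With licorice 1 of the 6 rose and 2 fell. Among them IL6R, encoding the receptor, rose by 1.22 with Poria, by 0.59 with licorice and by 1.73 with wortmannin. Of 9 hepatocyte markers 3 rose and 1 fell with Poria, whereas 1 rose and 7 fell with licorice, ALB by 0.49 and TF by 0.43. With wortmannin 5 rose and 1 fell, and TTR rose by 1.56. The part of these genes in the members' changes was not tested.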

How the data were processed

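RNA of HepG2 cells was measured in 60 libraries of 20 groups, 3 libraries each. Libraries came from a directional kit and were sequenced as paired reads, per the labels' protocols. FastQC 0.11.9, Trim Galore 0.6.5, STAR 2.7.3a and RSEM 1.3.3 on hg38 (GRCh38) are named in the submitters' processing notes; the annotation release is not given in the sources used here. The authors deposited expected counts per gene, as RSEM estimates them, and 76.1% of the values above 0 were whole. Of 270 columns of the table, 60 matched a sample and were used and 210 were not used. Symbols, exon lengths and gene coordinates came from GENCODE release 29, which named 57055 of 60675 IDs; the others held 0.04% of counts. Promoters came from RefSeq (GRCh38.p14), with 33 of 42 members matched; SERPINF2, SERPINC1, SERPING1, C1S, C4A, C4B, C3, CLU and C8G were not.

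The expected counts were rounded and fitted in edgeR 4.0.16 (R 4.3.3, quasi-likelihood test, TMM scaling, 1 mean per group, 40 residual degrees of freedom over all 60 libraries) on 16093 genes kept by filterByExpr (minimum count 10, minimum total 15). P-values were adjusted by Benjamini-Hochberg over all genes tested, and CPM are relative to the library total, without TMM scaling. The members and lists were chosen with earlier results of these data known. Named in each comparison were up to 8 called members with the largest log2 change whose libraries did not overlap, and always FGA, FGB, FGG, F2, F5, F7, SERPINC1, PLG, C3, C5, CFB, VTN and CLU; other members are given by role. From the lists of other genes up to 4 called genes were named, and some results are not reported here. C1QA, C1QB, C1QC, FCN1, GGCX, C5AR1, C5AR2 and CD55 were named after their values were seen.

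Alternatives were DESeq2 1.42.0 size factors and test, 2 other filters, the compared libraries alone, a replicate block, a regression on log dose, C4A and C4B added, and leaving out each library. Tested on simulated counts of 16093 genes, with 100 genes shifted at each size, the fit called 79 at 2-fold and 69 at 1.5-fold in wortmannin against vehicle (3.27% of calls false), and 80 and 70 in the licorice dose trend (9.09% false). No libraries of a group agreed within sampling noise (lowest chi-square per gene 2.42). Same-numbered libraries deviated together, every correlation above 0.1, in the peony dose trend (0.106 to 0.328) and in peony at 20 µg/mL against vehicle (0.207 to 0.383); this rests on the data, since the labels do not say what a number marks. The correlations came from deviations from the group means. Intervals were not used, and 3 counts per library mark the detection floor, for counting error only.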

Additional observations from a re-analysis of the deposited data

Results flagged for a closer look

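For these genes the dose trends (500 against 20 µg/mL) differed between the 6 extracts, by the joint edgeR test that all trends are equal, which compares the trends themselves. The adjusted p was 1.8e-20 for FGA, 7.58e-14 for FGB and 6.15e-13 for FGG, the fibrinogen chains, 0.000477 for F13B, 0.00256 for F5 and 1.34e-11 for F7. It was 0.000245 for KLKB1 and 6.93e-15 for KNG1 in the contact system, 2.44e-10 for PLG and 0.000172 for SERPINC1. Among complement genes it was 4.95e-11 for MBL2, 1.9e-06 for CFB, 7.7e-08 for C4BPA, 1.3e-07 for VTN, 0.00459 for CLU, 5.28e-07 for C5, 8.85e-21 for C8A and 6.57e-05 for C8B. F7 is one gene whose called trends had opposite signs, -0.89 with Poria and 0.38 with peony. KLKB1 is another, at -1.07 with Poria and 0.72 with licorice.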

How the results depend on the processing

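Of 262 single-member calls in the 19 comparisons of 2 groups, 168 held in every alternative and 94 were lost in at least 1; none changed sign. The counts for wortmannin (32), the Poria trend (35), the licorice trend (29), the angelica trend (2), Poria and licorice at 500 µg/mL against vehicle (37 and 28) and the joint test (30) stayed within 1.5 times of the reported value in every alternative run. The cause of the changes that follow was not tested. With the compared libraries alone, the ginseng trend had 0 calls in place of 1, the peony trend 2 in place of 4, ginseng at 500 µg/mL 8 in place of 14, and the 20 µg/mL comparisons with vehicle 0 for Poria (3), 2 for licorice (4), 8 for angelica (19) and 1 for peony (11). With no filter the peony trend had 2 calls, ginseng, angelica and peony at 500 µg/mL had 8, 7 (in place of 11) and 8 (in place of 13), and peony at 20 µg/mL had 6. The regression on log dose gave 0 calls for ginseng and 1 for peony. The DESeq2 test gave 1 call for Atractylodes (0) and 8 for licorice (4) at 20 µg/mL. Leaving out 1 library gave 0 to 1 calls in the ginseng trend and 2 to 3 in the peony trend. It gave 0 to 1, 6 to 12, 7 to 9 and 8 to 12 for Atractylodes, ginseng, angelica and peony at 500 µg/mL against vehicle. At 20 µg/mL it gave 1 to 3 for Poria, 0 to 2 for Atractylodes, 2 to 7 for licorice, 6 to 14 for ginseng, 10 to 17 for angelica and 4 to 8 for peony. An arm with a library left out keeps 2 libraries.

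With the replicate block all 262 calls held, the counts were 32 for wortmannin, 35 for the Poria trend, 29 for the licorice trend and 4 for the peony trend, and it changed no other call by over 1.5 times; it rests on numbers that the labels do not tie to shared cultures. Genes near the floor of 3 counts per library, C6 (2 to 16 counts), KLKB1 (9 to 59) and C8G (27 to 124), limit what can be read from their sizes. The same holds for TFPI2 (6 to 47) and HABP2 (9 to 52) among the genes outside the list.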
